A study of Rattus norvegicus with 6 samples.

Results

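The interleukin-6 (IL-6) cytokine family and its Stat3-Socs3 axis were followed as 10 genes: the ligands Il6, Il11, Lif, Clcf1 and Cntf, the receptor subunits Il6st, Lifr and Osmr, the transcription factor Stat3 and the feedback inhibitor Socs3. They were taken by gene symbol, and all 10 were found among the 18696 genes with group averages. Values per library were deposited for 5 of them (Lif, Clcf1, Cntf, Osmr and Socs3), among 1637 genes. The other 5 have the authors' average of each group alone, with no error.

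The samples were dorsal root ganglia, which house the cell bodies of sensory neurons, from rats of the SD strain. In the SNI group (spared nerve injury, 3 libraries), the common peroneal and tibial nerves were ligated and cut, a stretch of the distal ends was taken out, and the sural nerve was left whole. In the sham group (3 libraries), skin and muscle were opened to show the sciatic nerve and its branches, and closed again. Not given in the sources used here are age, sex, time after surgery, spinal level and whether animals were pooled. Nothing states that the libraries came from separate animals, so each p-value speaks of the spread among these libraries, part of which may be technical.

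Expression is in TPM, the share of a gene's transcripts among all transcripts of a library, scaled to a fixed total, corrected for length. Average read counts add up to 18.6 M in each group, and the depth of single libraries is unknown. Defining markers of sensory neurons were present, with Uchl1 averaging 6428 TPM in sham against 6178 TPM in SNI, and Nefl 7588 against 4497 TPM. Of 12 such markers, 4 had a higher average in SNI and 8 a lower one. Some other cell types differed between the groups. All 15 macrophage markers had a higher average in SNI (summed 407 TPM in sham, 895 TPM in SNI), as had all 10 erythrocyte markers (1425 and 4268 TPM), while 9 of 10 Schwann cell markers had a lower one (11821 and 6566 TPM). In such bulk tissue, fewer cells of a type and less RNA per cell cannot be told apart.

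IL-6 family cytokines signal through receptor complexes that share the subunit gp130, encoded by Il6st. Binding of a ligand activates JAK kinases bound to the receptor tails, which phosphorylate STAT3. STAT3 then enters the nucleus and raises transcription of its targets, among them Socs3, whose protein binds gp130 and the JAKs and shuts the signal down. In peripheral nerve the family is known for its part in the response of sensory neurons and glia to axon injury. Only RNA was measured here, so phosphorylation of STAT3 was not observed.

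In the SNI group, 9 of the 10 genes had a higher average than in sham and 1, Cntf, had a lower one, where 53.1% of all genes had a higher average. The median log2 ratio of averages (TPM + 1) was 0.55 over the 10 genes and 0.017 over all genes. In the authors' deposited table of higher genes stood 4 of the 10 (Il6, Il11, Clcf1 and Socs3), against 3.63% of all genes with averages, and 0 were in their table of lower genes, which held 0.695%. Among the 4 genes that could be tested per library, limma called Socs3, Clcf1 and Osmr higher in SNI and Cntf lower, each without overlap between the groups. The per-library table is itself a selection, in which 61.2% of tested genes were called (32% higher and 29.2% lower) and 66.7% had groups that did not overlap, so that 4 of 4 stands against a high background.

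**Figure D1:**
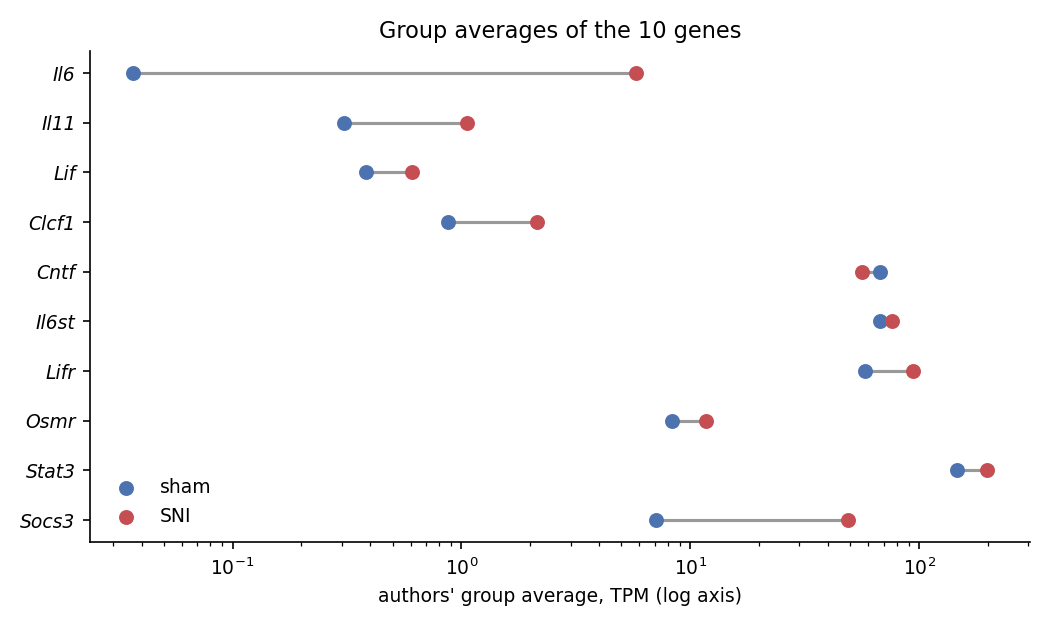
Authors' group averages in TPM (log axis) of the 10 genes, with sham in blue and SNI in red and a line joining the pair. The longest lines belong to Il6 (0.0367 to 5.77 TPM) and Socs3 (7.07 to 48.95 TPM), and Cntf is the gene whose SNI point lies to the left.

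Among the ligands, Il6 (NCBI Gene ID 24498), the pro-inflammatory cytokine that names the family, averaged 0.0367 TPM in sham against 5.77 TPM in SNI. The average read count was 0.33 in sham and 54.0 in SNI. If these averages are unscaled, this is 1 read over the 3 sham libraries and 162 reads over the 3 SNI libraries, a ratio of 162 with a 95% exact (Clopper-Pearson) interval of 28.7 to 6438 that covers counting error only. Il6 was thus close to undetected in sham. The log2 ratio of averages was 2.71 with a pseudocount of 1 and 5.43 with 0.1, and 0.214% of all genes had a ratio as high. How the 162 reads were spread over the SNI libraries cannot be seen from an average. The read sums and intervals given below for other genes also hold only if the averages are unscaled.

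Il11 (Gene ID 171040), a cytokine that acts on stromal cells through its own alpha receptor, averaged 0.307 TPM in sham against 1.05 TPM in SNI. Its reads summed to 14 in sham and 48 in SNI, a ratio of 3.43 (95% exact interval 1.86 to 6.73, counting error only). As for Il6, no value per library was given, so the spread between libraries is unknown. Its level in SNI was still low.

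Lif (Gene ID 60584), leukaemia inhibitory factor, which cells of injured nerve are known to release, stood at 0.21, 0.56 and 0.38 TPM in the sham libraries and at 0.12, 0.56 and 1.15 TPM in the SNI libraries. The groups overlapped: the lowest of all 6 values was an SNI library, and so was the highest. The means were 0.383 ± 0.175 and 0.610 ± 0.517 TPM (SD, n = 3), and Lif lay under the minimum of 1 TPM for testing. With no minimum, its log2 fold change was 0.18 with SE 0.23 (limma adjusted p = 0.54). Its reads summed to 14 in sham and 29 in SNI, a ratio of 2.07 (95% exact interval 1.06 to 4.24, counting error only). The difference between the means was smaller than the spread between the SNI libraries.

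Clcf1 (Gene ID 365395), cardiotrophin-like cytokine factor 1, which acts through the ciliary neurotrophic factor receptor, stood at 0.80, 1.05 and 0.78 TPM in sham and at 2.11, 1.95 and 2.34 TPM in SNI. Every SNI library lay above every sham library, at 2.22 to 2.67 times the sham mean. On the log2(TPM + 1) scale the fold change was 0.74 (SE 0.12, limma adjusted p = 0.00069). With a pseudocount of 0.1 it was 1.20. After quantile normalization it was 0.30 and the call was lost (limma adjusted p = 0.066). Reads summed to 44 in sham and 108 in SNI.

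Cntf (Gene ID 25707), ciliary neurotrophic factor, known as a product of myelinating Schwann cells that lacks a secretion signal, was the 1 ligand that was abundant in sham. It stood at 67.6, 72.4 and 62.4 TPM in sham and at 59.5, 56.7 and 51.99 TPM in SNI. The groups did not overlap, with the lowest sham library 2.94 TPM above the highest SNI library. The mean fell from 67.5 ± 4.97 to 56.1 ± 3.80 TPM (n = 3), which is −0.26 on the log2 scale (SE 0.07, limma adjusted p = 0.0100). Schwann cell markers moved with it: all 5 tested with limma fell, where 29.2% of all tested genes were called lower. The summed level of the 5 ranged from 8273 to 8455 TPM over the sham libraries and from 4171 to 4311 TPM over the SNI libraries. Of all 10 listed markers, 1, Egr2, named after its value was seen, had a higher average (log2 ratio 0.20). The part of Schwann cells in the Cntf result was not tested.

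Set against each other as TPM, which is per length, the 5 ligands changed places between the groups below Cntf. In sham the order was Cntf, Clcf1, Lif, Il11 and Il6. In SNI it was Cntf, Il6, Clcf1, Il11 and Lif. The order of Lif and Il11 rests on few reads, with 14 summed for each in sham. In SNI, the Lif libraries ranged from 0.12 to 1.15 TPM, on both sides of the Il11 average of 1.05 TPM. Cntf made up 97.7% of the summed average TPM of the 5 ligands in sham and 85.4% in SNI, while the sum of the other 4 went from 1.603 to 9.57 TPM. In sham, Clcf1 (0.78 to 1.05 TPM) and Lif (0.21 to 0.56 TPM) did not overlap, and in SNI the lowest Clcf1 value (1.95 TPM) was above the highest Lif value (1.15 TPM).

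**Figure D2:**
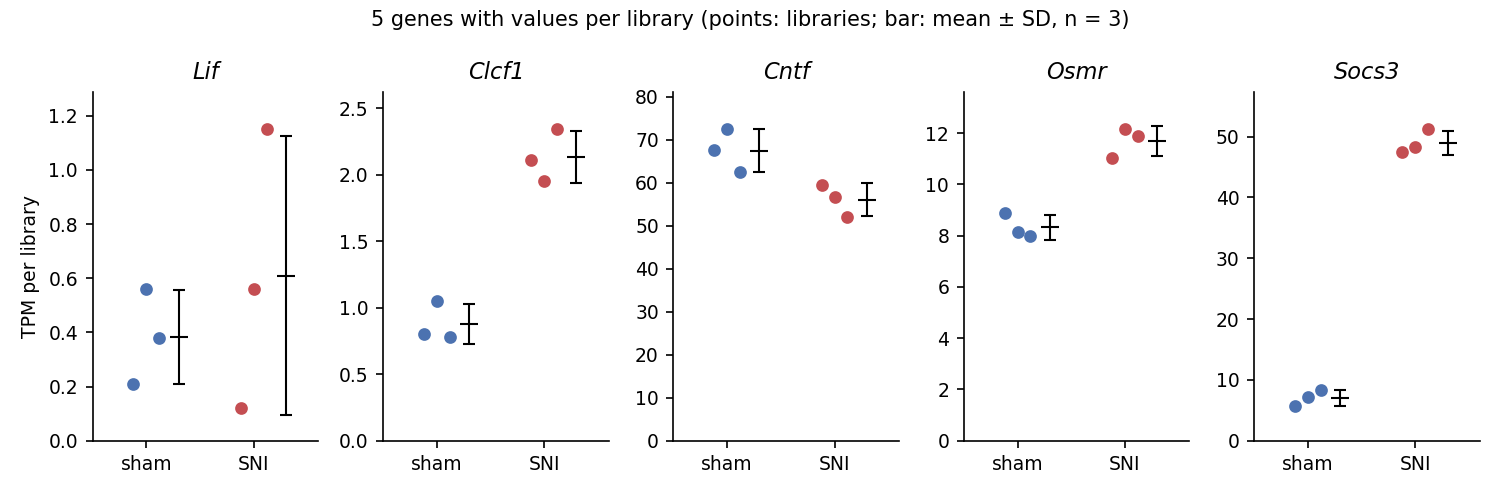
TPM in each library (points) for the 5 genes with values per library, sham in blue and SNI in red, with mean ± SD over 3 libraries in black. Lif overlaps between the groups, Clcf1, Osmr and Socs3 are higher in all 3 SNI libraries, and Cntf is lower in all 3.

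Promoter windows were looked up for these genes in RefSeq sequences of the rat GRCr8 assembly, each running from 250 bases before a gene's start to 50 after it. Windows were found for 8 of the 10 genes (not for Lif and Clcf1). The upstream 250 bases are shown for Il6 and Il11, whose averages were higher in SNI, and for Cntf, which was lower, since the given start of these 3 is the outer edge of the annotated gene. They are written 5′ to 3′ on the gene's strand, and end at the base before the start. Capitals mark the NF-κB consensus in Il6 and the AP-1 motif in Il11 and Cntf.
Il6 (chr4:5894576-5894825, minus strand): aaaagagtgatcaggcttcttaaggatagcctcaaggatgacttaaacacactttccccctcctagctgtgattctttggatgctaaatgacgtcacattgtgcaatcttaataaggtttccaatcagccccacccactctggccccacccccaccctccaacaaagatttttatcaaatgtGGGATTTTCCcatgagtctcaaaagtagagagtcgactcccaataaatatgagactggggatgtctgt
Il11 (chr1:78098372-78098621, plus strand): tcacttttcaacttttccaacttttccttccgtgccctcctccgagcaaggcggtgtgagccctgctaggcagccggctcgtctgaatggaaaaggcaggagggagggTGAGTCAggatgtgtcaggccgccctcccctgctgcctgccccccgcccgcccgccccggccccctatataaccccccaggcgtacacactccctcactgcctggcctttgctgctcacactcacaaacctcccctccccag
Cntf (chr1:219314536-219314785, minus strand): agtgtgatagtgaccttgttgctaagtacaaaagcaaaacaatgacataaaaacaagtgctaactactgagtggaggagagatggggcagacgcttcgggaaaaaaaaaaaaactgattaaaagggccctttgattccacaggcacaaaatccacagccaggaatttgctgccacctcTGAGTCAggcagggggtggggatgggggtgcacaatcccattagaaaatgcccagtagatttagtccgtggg

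Both strands of the 300-base windows were searched for 3 motifs. The given start lies inside the annotated gene in 5 of the 8 windows (Il6st, Lifr, Osmr, Stat3 and Socs3), so these 5 may miss the sequence before the gene's outer edge. The AP-1 motif TGANTCA, bound by Fos and Jun proteins, was found in 3 of the 8 windows, those of Il11, Cntf and Osmr, and in 7.33% of 33469 rat windows. In Il11 it runs from base −142 to −136 before the start, and in Cntf from −72 to −66. Il11 and Cntf thus hold the same 7 letters, TGAGTCA, though one was higher and the other lower in SNI. The NF-κB consensus was found in 3 of 8 windows (Il6, and the windows inside the gene of Il6st and Socs3) and in 7.51% of all, in Il6 from base −68 to −59. The STAT motif TTCNNNGAA was in 0 of the 8 windows and in 8.87% of all, which says only that these letters are not in these windows. Matches of letters say nothing of binding.

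Other genes of ligands, taken from a list of the family, were measured too. Of 6 with averages, 5 were higher in SNI and 1, Ctf1 (cardiotrophin 1), named after its value was seen, was lower at 5.94 and 4.42 TPM. The median log2 ratio of the 6 was 0.13, and 53.1% of all genes had a higher average. The 5 include genes close to undetected, such as Il31 at averages of 0.07 and 0.077 TPM, also named after its values were seen. Osm, oncostatin M, a ligand of Osmr, averaged 0.74 and 1.30 TPM, with read sums of 29 and 50 (ratio 1.72, 95% exact interval 1.07 to 2.83, counting error only).

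Among the receptors, Osmr (Gene ID 310132), the oncostatin M receptor, which pairs with gp130, was the 1 gene tested per library. It stood at 8.88, 8.14 and 7.97 TPM in sham and at 11.03, 12.15 and 11.89 TPM in SNI. All SNI libraries lay above all sham libraries. The mean rose from 8.33 ± 0.484 to 11.7 ± 0.586 TPM (n = 3), by 40.3%, or 0.44 on the log2 scale (SE 0.07, limma adjusted p = 0.00064). It was in neither of the authors' deposited tables of called genes.

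Lifr (Gene ID 81680), the receptor subunit that joins gp130 for Lif, Cntf and Clcf1, averaged 57.8 TPM in sham against 93.8 TPM in SNI, a ratio of 1.62. Its log2 ratio of 0.69 was reached by 4.60% of all genes and by 4.17% of the 11569 genes averaging 5 TPM or more. Il6st (Gene ID 25205), the shared gp130 subunit, averaged 67.6 and 75.99 TPM, a log2 ratio of 0.17 that 26.1% of all genes reached. Neither was in the authors' deposited tables of called genes, and neither has values per library. In averages, Lifr stood at 0.855 times the level of Il6st in sham and at 1.23 times in SNI, so their order turned round. Osmr lay far below both, at 0.144 times the level of Lifr in sham and 0.125 times in SNI.

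Of the other receptor genes, 3 of 5 with averages were higher in SNI and 2 lower, and 0 were in the authors' deposited tables of called genes. The ones described next were picked after their values were seen. The ligand-binding alpha receptors, which set which cells can respond to a given ligand, did not share a direction. Il6r, the IL-6 receptor, averaged 3.44 TPM in sham against 6.36 TPM in SNI. Il11ra1, the IL-11 receptor, averaged 49.7 and 37.4 TPM, and Cntfr, shared by Cntf and Clcf1, 92.0 and 90.0 TPM. The alpha receptor for IL-6 was thus the least abundant of these 3 in both groups. Macrophages, whose markers were higher in SNI (median log2 ratio 1.26 over 15 genes), are known to carry Il6r, and their part in this value was not tested.

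Stat3 (Gene ID 25125), the transcription factor of the pathway, was the most abundant of the 10 genes in both groups, averaging 146 TPM in sham against 198 TPM in SNI. This was an increase of the average by 35.9%, a log2 ratio of 0.44 that 8.93% of all genes reached. It has no values per library and was in neither of the authors' deposited tables of called genes. The other STAT genes had higher averages too, 6 of 6, where 53.1% of all genes had. Their median log2 ratio was 0.31, and the smallest was 0.083 for Stat6, named after its value was seen. Stat2, a factor of interferon signalling, rose by 0.24 on the log2 scale (limma adjusted p = 0.0052). Stat4, a factor of lymphoid and myeloid cells, was in the authors' deposited table of higher genes at averages of 0.41 and 2.01 TPM.

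The genes listed as JAK kinases and adaptors, not all of which act on STAT3, had higher averages in SNI in 9 of 9 (median log2 ratio 0.24), where 53.1% of all genes had. Some hardly differed, such as Grb2 at averages of 170.5 and 170.7 TPM, named after its values were seen. Jak1, the kinase that gp130 mainly uses, stood at 164, 152 and 158 TPM in sham and at 183, 187 and 188 TPM in SNI. The groups were apart, and the log2 fold change was 0.24 (limma adjusted p = 0.0016). Jak2, another kinase of the family, stood at 11.4 and 24.2 TPM as averages and belonged to the authors' deposited table of higher genes. Of 2 genes tested with limma, 1 rose and the other, Sos1, was not called (log2 fold change 0.05, limma adjusted p = 0.60). It was picked out after its result was known.

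Socs3 (Gene ID 89829), the feedback inhibitor, showed the largest difference of the 4 tested genes. It stood at 5.73, 7.18 and 8.31 TPM in the sham libraries and at 47.4, 48.2 and 51.2 TPM in the SNI libraries. The SNI libraries were 6.71, 6.82 and 7.24 times the sham mean, and lay close together (coefficient of variation 4.03%, against 18.3% in sham). The mean rose from 7.07 ± 1.29 to 48.95 ± 1.97 TPM (n = 3), which is 2.64 on the log2 scale (SE 0.11, limma adjusted p = 6.1e-08). The ratio of averages was reached by 0.219% of all genes and by 0.328% of those averaging 5 TPM or more. In sham, Socs3 and Osmr overlapped in level (5.73 to 8.31 and 7.97 to 8.88 TPM), while in SNI Socs3 lay above Osmr in all libraries. Set against its regulator, the average level of Socs3 was 0.0485 times that of Stat3 in sham and 0.247 times in SNI.

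**Figure D3:**
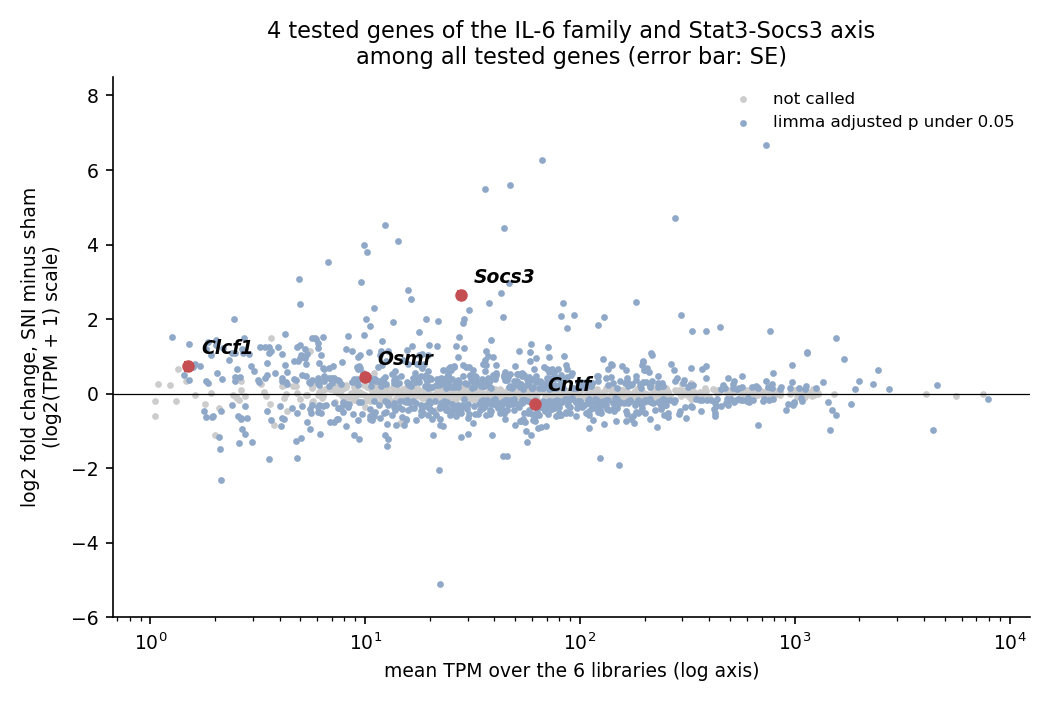
Log2 fold change (SNI minus sham, log2(TPM + 1) scale) against the mean TPM over the 6 libraries (log axis) for 1596 tested genes, called genes in blue and others in grey, with Clcf1, Cntf, Osmr and Socs3 in red with their SE (hidden by the points). Socs3 lies at 2.64, above most genes of its level, Clcf1 and Osmr at 0.74 and 0.44, and Cntf below zero at −0.26.

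The other inhibitors of JAK-STAT signalling had smaller ratios of averages than Socs3. Of 15, 12 had a higher average in SNI and 3 a lower one, where 53.1% of all genes had a higher one. The median log2 ratio was 0.11. Against 3.63% of all genes with averages, 2 were in the authors' deposited table of higher genes. These were Socs1 (3.15 and 6.48 TPM), which binds JAKs directly, and the phosphatase Ptpn6 (7.89 and 18.3 TPM), known from blood-derived cells. Cish, a family member best known from STAT5 signalling, averaged 21.5 and 42.2 TPM and was in neither table. The phosphatases Ptpn1 and Ptpn2, which act on JAKs and STATs, had log2 ratios of 0.84 and 0.75, and Socs4 had 0.34. Socs2, Socs5, Socs6 and Socs7 lay between 0.007 and 0.15. The 3 lower genes were Pias2, Pias3 and Pias4, at log2 ratios of −0.09, −0.09 and −0.08. The genes of this paragraph outside the authors' table were named after their values were seen.

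A list of 37 genes known to respond to STAT3, many of them also to other signals, was followed beside the axis. The list was written with earlier results of these data known, so its direction is no independent evidence. Of 34 with averages, 31 were higher in SNI and 3 lower, where 53.1% of all genes were higher. The median log2 ratio was 1.09 against 0.017 over all genes. In the authors' deposited table of higher genes stood 23 of the 37, against 3.63% of all genes with averages. Of 13 tested with limma, 12 rose and 1, Vegfa, picked out as the exception, fell (log2 fold change −0.35). Among all tested genes, themselves a selection, limma called 32% higher and 29.2% lower. A2m, the rat acute-phase protein alpha-2-macroglobulin, stood at 10.6, 10.5 and 10.7 TPM in sham and at 75.6, 75.8 and 73.96 TPM in SNI, a log2 fold change of 2.71 (limma adjusted p = 6.9e-10). Serpina3n, a protease inhibitor, rose by 6.26 on the log2 scale, Reg3b, a secreted lectin, by 5.61, and the neuropeptide galanin (Gal) by 4.71. Serpina3n and Reg3b belong to families of similar genes that can share reads. The injury-induced transcription factor Atf3 averaged 8.13 TPM in sham against 288 TPM in SNI, and Sprr1a, linked to axon growth, 0.0933 and 41.8 TPM.

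Regulators of IL-6 messenger RNA were in a further list. Arid5a, which stabilises it, averaged 7.25 TPM in sham against 23.8 TPM in SNI and was in the authors' deposited table of higher genes. Zfp36, which promotes decay of such transcripts, rose from 22.6 to 38.1 TPM on average, with a log2 fold change of 0.72 (limma adjusted p = 6.2e-06). All 5 genes of that list, which also holds the shedding proteases Adam10 and Adam17, had a higher average in SNI, where 53.1% of all genes had.

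**Figure D4:**
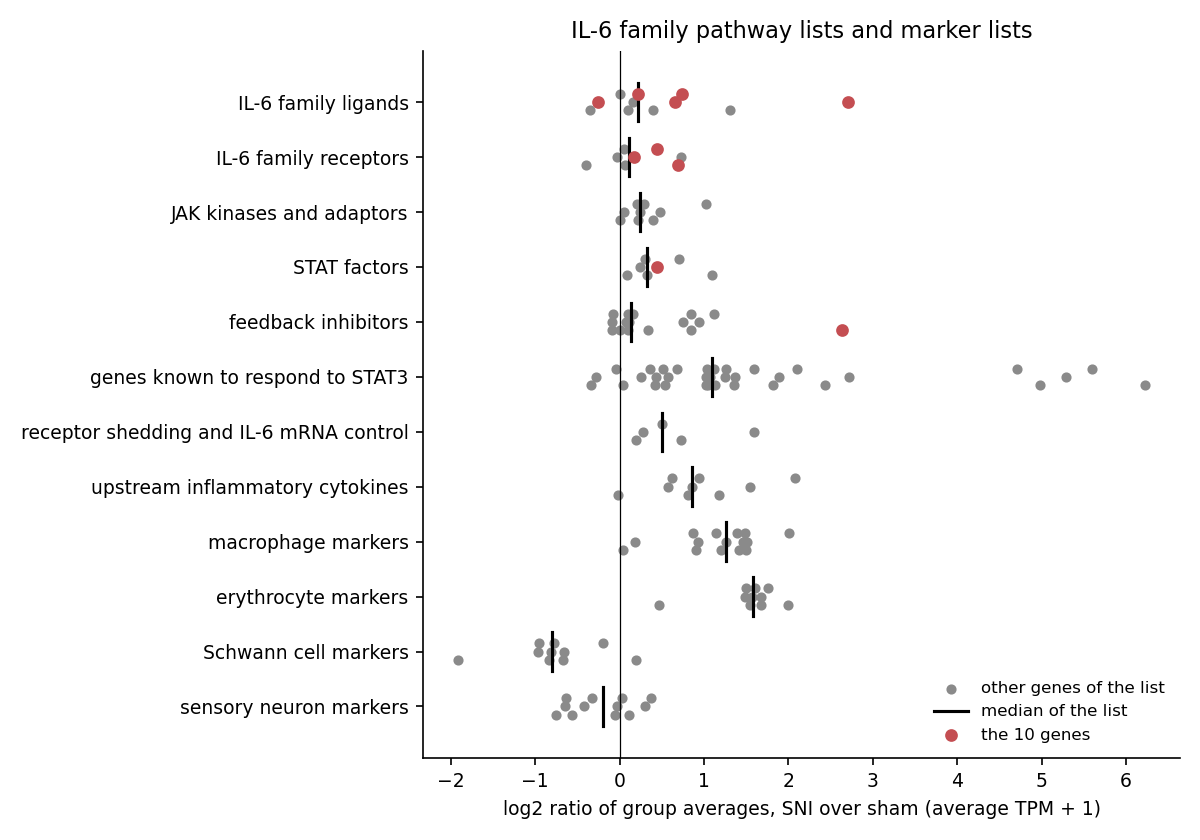
Log2 ratio of group averages (SNI over sham, average TPM + 1) for each gene of the pathway lists and of 4 marker lists, with the 10 genes in red and the list median as a black bar. Il6 (2.71) and Socs3 (2.63) lie to the right of the other ligands and inhibitors, and the medians of the macrophage and erythrocyte markers are 1.26 and 1.58 while that of the Schwann cell markers is −0.80.

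Cell type markers moved in the same comparison, and their part in the rises of Il6 and Socs3 was not tested. Over all genes with averages, 53.1% were higher in SNI and 3.63% were in the authors' table of higher genes. Limma called 32% of all tested genes higher and 29.2% lower. Of 15 macrophage markers, 11 were in the authors' deposited table of higher genes. The 5 with values per library summed to between 25.4 and 26.5 TPM in sham and between 62.7 and 66.1 TPM in SNI. Of these 5, 3 rose with limma and 2 were not called. The 2 were Cd163 and Mrc1, picked out after their results were known (log2 fold changes 0.04 and 0.18, limma adjusted p = 0.73 and 0.073). C1qa, a complement gene of macrophages, averaged 81.7 and 197 TPM, and C1qc 118 and 216 TPM. All 9 erythrocyte markers tested with limma rose, with library sums of 1310 to 1505 TPM in sham and 4203 to 4308 TPM in SNI. Of the haemoglobin genes, Hba1 averaged 813 and 2285 TPM and Hba-a2 367 and 1172 TPM, and such near-identical copies can share reads. Of 8 neutrophil markers, 6 had a higher average in SNI and 2 a lower one, with S100a9 at 160 and 262 TPM and S100a8 at 101 and 147 TPM. The neutrophil marker with a limma test, Mpo, picked out after its result was known, was not called (log2 fold change −0.07, limma adjusted p = 0.62), but fell under quantile normalization (−0.45, limma adjusted p = 0.0087). All 7 genes listed as T cell markers with averages were higher in SNI, with Cd4 at 25.2 and 53.1 TPM and Cd2 at 1.81 and 3.13 TPM. Cd3e of the same list, named after its values were seen, was far lower than Cd4, at 0.89 and 2.33 TPM. Whether the Cd4 level came from T cells was not tested. Of 10 satellite glia markers, 9 had a higher average in SNI and 1, S100b, a lower one. S100b averaged 1728 and 1378 TPM. Averages of the Schwann cell gene Pmp22 were 2602 and 1640 TPM. Of 7 fibroblast markers, 2 had a higher average and 5 a lower one, and of 6 tested with limma 1 rose, 3 fell and 2 were not called. Dcn and Col3a1 had log2 fold changes of −0.15 and −0.13, and Col1a2, picked out as the 1 that rose, 0.30 (limma adjusted p = 0.047). The Col1a2 call was lost under 9 of 14 alternatives, and its log2 fold change was 0.16 without sham replicate 2 (limma adjusted p = 0.088). Of 6 endothelial markers, 4 averages were higher and 2 lower, with Cldn5 at a log2 fold change of −0.20 and Pecam1 at averages of 15.5 and 16.7 TPM. Of 8 skeletal muscle markers, 3 averages were higher and 5 lower (median log2 ratio −0.055), with Acta1 at 15.98 and 16.5 TPM and Des at 4.57 and 11.3 TPM. None of the markers with averages was at 0 in either group.

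Genes most like each member with values per library were sought among the tested genes, by the smallest mean absolute difference over the 6 libraries in log2(TPM + 1) relative to the gene's own sham mean. In a design of 2 groups, this mostly finds genes of a similar fold change. For Socs3 these were A2m (difference 0.12), Cryba2, a crystallin (0.17), the neuropeptide precursor Vgf (0.19) and the chemokine Cxcl13 (0.22). For Clcf1 they were Fabp5, Emp3, Krt7 and Cd63 (0.052 to 0.064), and for Osmr Ptpn9, Ifngr2, Rnf213 and Washc4 (0.021 to 0.039). For Cntf they were Ndufb3 and Uqcrh, both genes of the respiratory chain, Rgcc and Fbln1 (0.023 to 0.044). For Lif they were Sstr2, LOC100911761, Edn1 and Sec61g (0.15 to 0.17).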

How the data were processed

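RNA sequencing of dorsal root ganglia from 3 SNI and 3 sham libraries was taken from the deposited tables. Per the file headers, the authors gave TPM per library for 1637 genes, and for 18696 genes each group's average TPM and average read count. The read counts are deposited by the authors as group averages of estimated counts, with any scaling unstated. Multiplied by 3, the average read counts came out whole (within 0.001) in 65.4% of sham and 64.8% of SNI values. A list of 699 genes higher in SNI and one of lower genes came with pathway names from KEGG. Not given in the sources used here are the aligner, counter, genome build, annotation, use of strand and the test behind these lists. Columns named control were taken as sham.

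The 1596 genes whose mean reached 1 TPM were compared on log2(TPM + 1) in R 4.3.3 by limma 3.58.1, using an intensity trend and Benjamini-Hochberg adjustment over all of them, at an adjusted p under 0.05. The fit was tested on simulated data. Averages have no error and were given as log2 ratios with the same pseudocount, without a test. An exact permutation test of 3 against 3 libraries cannot go below a two-sided p of 0.1 and was not used.

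The 10 genes and the gene lists were chosen with earlier results of these data known. Of 198 list genes, 191 were matched to the files, 1 of them through the RefSeq symbol of GRCr8. Named beside the 10 genes were up to 4 called genes and up to 4 genes of the authors' lists per pathway list, the 2 most abundant genes per marker list, and the 4 genes nearest to each member with values per library. A few genes that this rule names are not reported here. Python 3.11.15 with pandas 2.3.3, scipy 1.17.1 and matplotlib 3.10.9 was used for the rest. The alternatives tried were other pseudocounts, filters and scalings, no trend, a replicate block and leaving out each library.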

Additional observations from a re-analysis of the deposited data

How the results depend on the processing

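The 20 gene results with a limma test counted here are of the 10 genes or of genes named by the rule above. Of their 279 values under the 14 alternatives, 270 kept direction and call, 9 lost the call and 0 reversed. Clcf1 was the 1 of the 10 genes that lost its call, after quantile normalization (log2 fold change 0.30, limma adjusted p = 0.066), and the cause was not tested. It kept the call under the other 12 alternatives run and could not be fitted at a mean of at least 5 TPM, which it does not reach. Over the alternatives, the log2 fold change ranged from 2.51 to 2.79 for Socs3, from 0.29 to 0.49 for Osmr and from −0.32 to −0.21 for Cntf, each with 14 of 14 calls kept and highest limma adjusted p of 3.2e-06, 0.0053 and 0.048. The other lost calls among the 20 were of markers. Dcn lost its call without SNI replicate 1 (limma adjusted p = 0.065). Cldn5 lost it without SNI replicate 2, SNI replicate 3 or sham replicate 3 (0.059, 0.079 and 0.078). Col3a1 lost it without SNI replicate 1, SNI replicate 2 or sham replicate 3 (0.097, 0.10 and 0.080) and with the replicate block (0.051). Genes picked out after their results were known, such as Col1a2 and Mpo, are not among the 20. Col1a2 lost its call under 9 of 14 alternatives. Mpo was called under quantile normalization. Without SNI replicate 3 its log2 fold change turned from −0.07 to 0.0018. Of the 976 called genes, 52.3% were higher in SNI, and 39.8% of the 1010 called after quantile normalization. Replicate numbers are shared by the groups, but same-numbered libraries did not deviate together (r = −0.088, −0.059 and 0.188 across 1596 genes), and sham replicate 1 correlated most with SNI replicate 2 (0.291). With the replicate block, 945 genes were called, 933 of them shared with the fit without it, and no call of the 10 genes changed. The number of the 10 genes with a higher average was the same for TPM with a pseudocount of 0.1, for read counts and after centring on the median ratio. The ratios of the low genes moved: with average read counts, the log2 ratio was 5.37 for Il6, 1.58 for Il11, 0.91 for Lif and 1.24 for Clcf1. Depth limits these 4 genes most, at 1 to 44 reads in sham over 3 libraries.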

Other observations

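Cytokine genes outside the IL-6 family that also signal through JAK kinases were present in the authors' deposited table of higher genes. The Jak-STAT signaling pathway name was attached to 22 of its 699 genes, and to 0 genes of their table of lower genes. The share of all genes that carry this name was not counted, so neither number has a background to be read against. The table of lower genes is also smaller, with 0.695% of all genes with averages against 3.63% in the table of higher genes. Not all of the 22 are genes of cytokines or receptors, as Gfap and Cdkn1a are among them. Among the 22 were 3 of the 10 genes described above (Il6, Il11 and Socs3). The 2 with the largest ratio of averages, picked for that after their values were seen, were Il24, a cytokine of the IL-10 family, at 0.29 TPM in sham against 12.6 TPM in SNI, and Tslp, thymic stromal lymphopoietin, an itch- and allergy-linked cytokine, at 2.73 and 34.8 TPM. Il24 had an average of only 3.33 reads in sham. Receptor subunits of other cytokines were also among the 22, such as Csf2rb (2.07 and 7.16 TPM), Il4r (9.64 and 26.2 TPM) and Il13ra1 (24.0 and 60.7 TPM).

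Of 9 inflammatory cytokines and receptors with averages, listed as upstream of Il6, 8 were higher in SNI, where 53.1% of all genes were. Their median log2 ratio was 0.85, and 5 were in the authors' deposited table of higher genes, against 3.63% of all genes with averages. This list too was written with earlier results of these data known, so its direction is no independent evidence. Il1r1, the receptor of interleukin-1, averaged 4.64 TPM in sham against 15.4 TPM in SNI, Il1b 1.66 and 4.11 TPM, Il18 5.07 and 12.7 TPM, and the macrophage growth factor Csf1 12.2 and 54.9 TPM. Il33, an alarmin, rose by 0.57 on the log2 scale (limma adjusted p = 2.8e-05). The gene with a lower average was Tnf, tumour necrosis factor, at 0.880 and 0.850 TPM with about 13 reads per library in both groups, named after its value was seen.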
